A study of Mus musculus with 16 samples.

Results

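T cell receptors are assembled from variable (V), joining and constant gene segments, and the V segment carries most of the part of the receptor that touches its ligand. Alpha chains use Trav segments, beta chains Trbv, gamma chains Trgv and delta chains Trdv, and some Trav segments, marked dv in their names, can also join a delta chain. In the spleen most T cells carry an alpha and a beta chain and a minority a gamma and a delta chain, so the RNA of these segments reports on T cells and on which receptors they use. The V segments described here are the gene symbols beginning with Trav, Trbv, Trgv or Trdv: 178 of the 55291 symbols measured, each read from the 1 transcript with the highest mean count. They comprised 130 Trav segments (mouse genome build mm10, chromosome 14, 52427928 to 53977678), 35 Trbv segments (chromosome 6, 40891229 to 41558452), 7 Trgv segments (chromosome 13, 19178024 to 19340454) and 6 Trdv segments (chromosome 14, 53881612 to 54149294).

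Spleens came from male C57BL/6 mice, wild type (WT) or knockout (KO) for PKR, the double-stranded RNA-activated kinase encoded by Eif2ak2. Both genotypes received the same daily treatment, 62.5 mg of a cream holding 5% imiquimod, a Toll-like receptor 7 agonist used to induce psoriasis-like inflammation, on shaved back skin. Spleens were taken on day 0, 1, 2 or 5, which gave 8 groups (WT or KO, 4 days). Each group had 2 libraries of ribosome-depleted RNA, and each library pooled the spleens of 2 mice, so the spread between libraries is one between pools of mice. The sources used here give neither the ages nor the design of the knockout, no vehicle-cream group was analysed here, and the cells were whole spleen suspensions after red cell lysis.

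The 16 libraries held 35026754 to 67333830 fragments. Eif2ak2 read 24.7 and 25.8 CPM (counts per 1000000 fragments of the library, with trimmed-mean scaling) in WT day 0 and 12.2 and 14.9 in KO day 0, so KO libraries kept Eif2ak2 reads. The library labelled KO day 2 replicate 1 went against its label among the day 2 libraries. It read 48 CPM, above 32.9 and 43.3 in WT day 2 and 22.2 in KO day 2 replicate 2. KO day 1 libraries read 43.3 and 36.8 CPM, against 101 and 96.7 in WT day 1, so the 48 CPM alone does not settle the label. The same library also held the lowest V segment level of all libraries. The counts of called segments and the summed levels of KO day 2 are given with and without it. Scaling mattered on day 1: on the authors' FPKM values (fragments per kilobase of transcript and per 1000000 fragments) the median change of all genes was 0.19 log2 units in WT day 1 against day 0 and -0.20 in KO against WT on day 1, and it was -0.04 and -0.02 with the scaling used here.

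The sequences below show the segments on which the results turn, as the last 45 bases of the V exon of each transcript in GENCODE M21 (GRCm38, the mm10 assembly), 5′ to 3′. The capitals mark the last in-frame TGT codon, which encodes the cysteine where the hypervariable CDR3 loop begins. The bases after it are the segment's own contribution to that loop, and the joining segment follows. The first 4 are the most abundant beta segments by count and Trbv31 is one whose share differed widely between the libraries of day 2.
Trbv12-2 (chr6:41119320-41119364, +): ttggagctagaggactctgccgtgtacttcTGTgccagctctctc
Trbv15 (chr6:41141614-41141658, +): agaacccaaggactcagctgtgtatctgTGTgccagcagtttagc
Trbv3 (chr6:41048784-41048828, +): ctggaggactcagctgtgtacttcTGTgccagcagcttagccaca
Trbv13-1 (chr6:41116424-41116468, +): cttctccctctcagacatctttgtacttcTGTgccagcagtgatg
Trbv31 (chr6:41557693-41557737, -): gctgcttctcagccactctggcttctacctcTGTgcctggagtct
The next pair are the alpha segments of invariant natural killer T cells, which were identical over the 342 bases compared, so reads could not be assigned to one of them by sequence.
Trav11 (chr14:53519815-53519859, +): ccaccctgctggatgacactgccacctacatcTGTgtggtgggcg
Trav11d (chr14:52824868-52824912, +): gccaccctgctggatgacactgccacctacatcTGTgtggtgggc
The next 2 are the delta segments with most counts.
Trdv2-2 (chr14:53961558-53961602, +): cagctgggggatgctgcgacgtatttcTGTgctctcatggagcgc
Trdv4 (chr14:54075471-54075515, +): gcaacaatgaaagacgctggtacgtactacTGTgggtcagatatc
The last 3 lines are 60-base windows of the Trav14 copies discussed under the genotypes, with capitals on the bases that differ between Trav14-1 and the other copies. Over 364 coding bases Trav14n-1 did not differ from Trav14d-1, whereas Trav14-1 differed from it at 16.
Trav14d-1 (chr14:52855892-52855951, +): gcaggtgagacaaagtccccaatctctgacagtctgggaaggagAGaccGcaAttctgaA
Trav14n-1 (chr14:53166904-53166963, +): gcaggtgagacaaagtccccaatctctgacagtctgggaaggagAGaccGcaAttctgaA
Trav14-1 (chr14:53554284-53554343, +): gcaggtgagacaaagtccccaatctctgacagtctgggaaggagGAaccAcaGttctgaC

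Copies of this kind are common in the alpha locus, part of which is repeated in the C57BL/6 genome as clusters named with the letters d and n. Of the 130 Trav transcripts, 40 had no 75-base word of their own among the 178 V segment transcripts, and 46 segments formed 23 pairs of near-identical copies. All 35 Trbv transcripts were unique throughout in that comparison. Transcripts of other genes were not searched. Values of single Trav copies are therefore uncertain wherever a copy is named, and the beta segments give the clearer view.

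Of the 178 segments, 34 are annotated as pseudogenes, and the 16 segments with no count in any library were all pseudogenes. The remaining segments together had 32398 counts, 18872 of them in Trbv, 12197 in Trav, 729 in Trgv and 600 in Trdv. A filter on low counts left 88 segments for the gene-by-gene tests (62 Trav, 21 Trbv, 3 Trgv and 2 Trdv), which held 91.9% of the counts. The 90 others were too low to test, and 2 of the tested segments, Trbv24 and Trav8-2, are pseudogenes with 96 and 102 counts. In all the 90 untested segments summed to 6.54 and 5.93 CPM in WT day 0, 1.29 and 1.33 on day 2, then 2.08 and 1.93 on day 5.

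In untreated spleens beta segments stood at higher levels per length than alpha segments. The median over the 22 functional Trbv segments was 4.94 FPKM in WT day 0, and Trbv12-2 was highest at 13.4 FPKM. Over the 110 functional Trav segments the median was 0.509 FPKM, and the highest, Trav14n-1, had 2.3 FPKM. The 7 Trgv segments had a median of 0.132 FPKM with Trgv4 highest at 1.02, and the functional Trdv segments had a median of 0.386 FPKM with Trdv2-2 highest at 1.54. The beta counts lay in fewer segments, but fewer exist, with 22 functional Trbv against 110 functional Trav segments. On day 0 7 Trbv segments held more than 50% of the Trbv counts in WT and in KO. For the same share of Trav counts 24 (WT) or 27 (KO) Trav segments were needed.

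The summed levels fell in both genotypes and came part of the way back by day 5. Trbv segments together stood at 50.2 and 39.1 CPM in the WT day 0 libraries, 28.9 and 32.4 on day 1, 5.75 and 7.21 at day 2, then 15.3 and 13.9 on day 5. The KO libraries read 45.8 and 56 CPM on day 0, 21.8 and 20.2 on day 1, 3.93 and 9.95 at day 2, then 14.1 and 19.5 on day 5. With trimmed-mean scaling no library of days 1, 2 or 5 reached its genotype's day 0 range, and the day 2 libraries were the lowest of each genotype. Without that scaling the WT Trbv values were 51.6 and 37.7 on day 0 and 34.6 and 38.5 on day 1. WT day 1 replicate 2 then lay within the day 0 range. As group means, WT Trbv levels were 44.7 ± 7.88, 30.6 ± 2.52, 6.48 ± 1.03 and 14.6 ± 0.97 CPM (SD, n = 2) on days 0, 1, 2 and 5, and KO levels were 50.9 ± 7.15, 21 ± 1.11, 6.94 ± 4.26 and 16.8 ± 3.78 CPM. Day 2 therefore held 14.5% of the day 0 level in WT and 13.6% in KO, and day 5 held 32.6% and 33%. The 13.6% averages 7.72% in the library labelled KO day 2 replicate 1 and 19.5% in replicate 2, on both sides of the WT day 2 libraries at 12.9 and 16.1%. In bulk RNA fewer T cells, less receptor RNA per T cell and a larger share of RNA from other cells cannot be told apart.

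**Figure D1:**
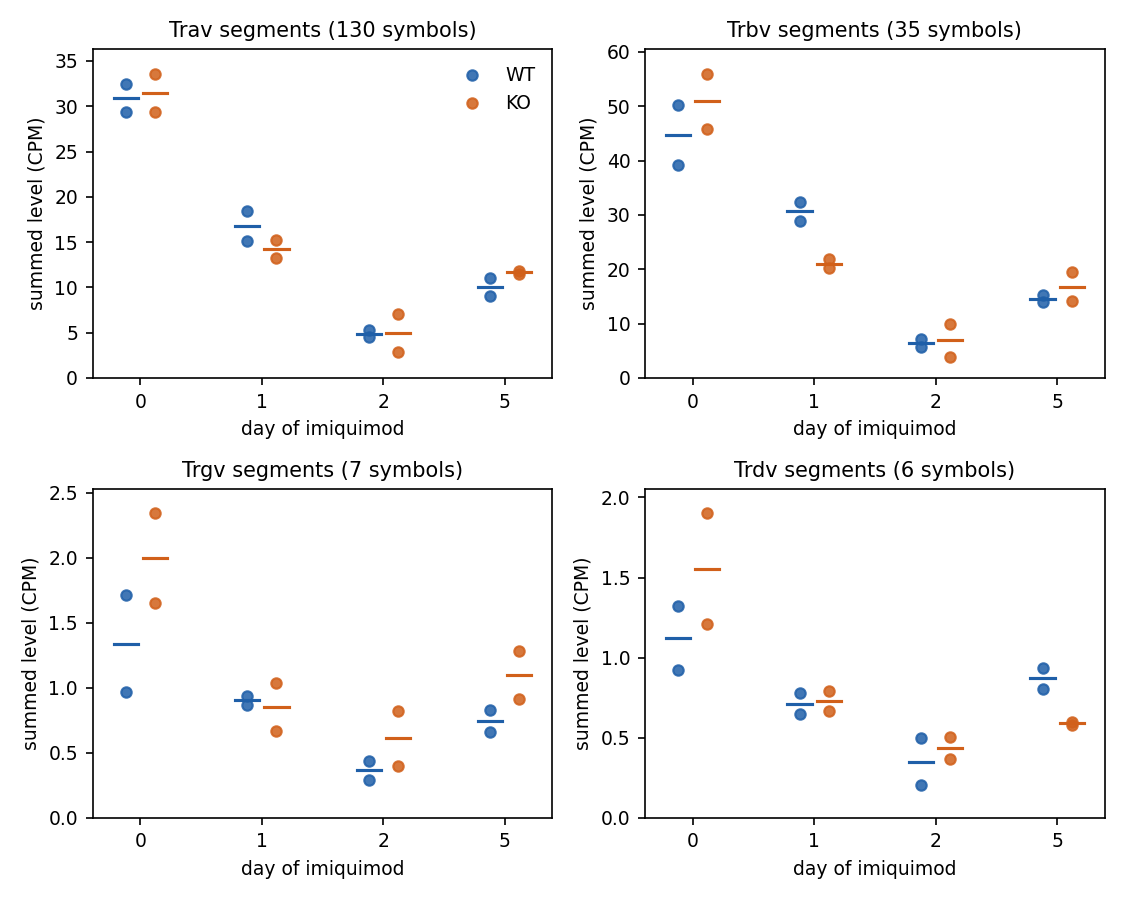
Summed level (CPM, y axis) of the Trav, Trbv, Trgv and Trdv segments by day of imiquimod (x axis); each point is 1 library and the line is the mean of the 2 libraries of a group. Trbv falls from 44.7 to 6.48 CPM between day 0 and day 2 in WT and from 50.9 to 6.94 CPM in KO, and all 4 chains are lowest on day 2.

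Trav segments together followed the same course. They read 32.5 and 29.4 CPM in WT day 0, 15.1 and 18.4 on day 1, 4.52 and 5.26 at day 2, then 11 and 9.03 on day 5. In KO they read 29.4 and 33.6 CPM, then 15.2 and 13.2, then 2.85 and 7.08, and finally 11.5 and 11.8. Day 2 held 15.8% of the day 0 mean in WT, with 14.6 and 17% in its libraries. In KO the library labelled KO day 2 replicate 1 held 9.05% and replicate 2 held 22.5%. The gamma and delta segments were scarce throughout, with 14 to 93 Trgv counts and 7 to 92 Trdv counts per library. Together they stood at 2.46 ± 0.802, 1.62 ± 0.142, 0.716 ± 0.0998 and 1.62 ± 0.0271 CPM in WT and 3.55 ± 0.00784, 1.59 ± 0.348, 1.05 ± 0.394 and 1.68 ± 0.245 CPM in KO (SD, n = 2) on days 0, 1, 2 and 5.

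On day 1 in WT spleens few V segments passed when tested one by one. By edgeR's quasi-likelihood test, with Benjamini-Hochberg adjustment over all 18789 genes tested and a threshold of 0.05, 10 of the 88 tested segments fell and 0 rose, when 21.4% of all genes were called lower. The share of members called, 11.4%, lay below that background, although the median change of the 88 was -0.78 log2 units and 82 lay below zero. Among called segments the largest falls were in Trav15-1-dv6-1 (counts of 23 and 30 on day 0, 7 and 6 on day 1), Trav9d-3 (13 and 18, then 5 and 4) and Trdv2-2 (37 and 26, then 8 and 19). The log2 changes were -2.32 ± 0.596 (SE; adjusted p = 0.00422), -2.06 ± 0.621 (0.0118) and -1.62 ± 0.501 (0.014) with edgeR, n = 2 against 2. Both day 1 libraries lay below both day 0 libraries for each of these.

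Few beta segments passed on that day. Trbv12-2 read 5.88 and 4.45 CPM on day 0 and 3.29 and 4.34 on day 1, a log2 change of -0.43 ± 0.271 that did not pass (edgeR, adjusted p = 0.207), and Trbv15 changed by -0.29 ± 0.321 (adjusted p = 0.484). Of the 21 Trbv segments only Trbv14, Trbv16 and Trbv1 passed. Trbv14 changed by -1.13 ± 0.365 (adjusted p = 0.0177) and Trbv1 by -0.65 ± 0.257 (0.0465). The number of called segments rested on single libraries: it was 3 without WT day 0 replicate 1, 4 without WT day 1 replicate 1 and 4 without WT day 1 replicate 2. Trav15-1-dv6-1 no longer passed without WT day 1 replicate 2 (adjusted p = 0.0591), nor Trav9d-3 without WT day 0 replicate 2 or WT day 1 replicate 2 (0.0621 and 0.126) or with DESeq2 (0.0952). The calls of Trdv2-2 and Trbv14 ended without WT day 0 replicate 1 (0.166 and 0.0686) or WT day 1 replicate 1 (0.114 and 0.17), and that of Trbv1 ended without WT day 0 replicate 1 (0.259), WT day 1 replicate 1 (0.122) or replicate 2 (0.174), and, at 0.051 to 0.0532, without any of 5 libraries of other groups. By other methods Trbv14 did not pass with limma (0.077), and Trbv1 did not pass with limma (0.222), DESeq2 (0.0967), no filter (0.106), the compared groups alone (0.0614) or summed transcripts (0.0898).

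By day 2 most tested segments had fallen in WT spleens. Of the 88 segments 75 fell and 0 rose, when 21.3% of all genes were called lower: 51 of 62 Trav, 20 of 21 Trbv, 3 of 3 Trgv and 1 of 2 Trdv. DESeq2 called 63, of them 41 Trav and 19 Trbv. The median change by edgeR was -2.74 log2 units (-2.68 with segments at 0 counts set to their bound), against -0.02 over all genes. The 20 Trbv segments that passed fell by log2 changes between -2.19 (Trbv2) and -3.50 (Trbv23), and the only one that did not pass was the pseudogene Trbv24 at -2.13 (edgeR, adjusted p = 0.0739).

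The abundant beta segments fell by similar amounts. Trbv12-2 read 5.88 and 4.45 CPM on day 0 and 0.763 and 0.642 CPM on day 2, a log2 change of -2.88 ± 0.329 (edgeR, adjusted p = 1.33e-06). Trbv15 went from 5.09 and 3.67 CPM to 0.675 and 0.952 CPM, a log2 change of -2.40 ± 0.378 (adjusted p = 7.88e-05). Trbv3 went from 3.73 and 2.66 CPM to 0.293 and 0.6 CPM, a log2 change of -2.77 ± 0.405 (adjusted p = 2.77e-05). In each case the day 2 libraries lay far below both day 0 libraries, and the groups did not overlap. Trbv13-1 changed by -2.83 ± 0.323 and Trbv13-3 by -3.26 ± 0.367 (edgeR, adjusted p = 1.28e-06 and 1.08e-06). These 5 calls held under every alternative tried, including each library left out.

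For Trbv31 the libraries of day 2 lay far apart. This segment lies downstream of the beta constant segments in inverted orientation. It read 2.61 and 2.08 CPM on day 0 but 0.0293 and 0.352 CPM on day 2, that is 1 count in one library and 17 in the other. The log2 change was -3.44 ± 0.593 (edgeR, adjusted p = 0.00027), and it was between -6.18 and -2.72 when single libraries were left out.

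Among the alpha segments in WT day 2, Trav16n, the one with the highest total count, had 43 and 43 counts on day 0 and 7 and 8 on day 2. Its log2 change was -2.10 ± 0.442 (edgeR, adjusted p = 0.000799). Trav14-2 had 46 and 46 counts, then 5 and 7, a log2 change of -2.52 ± 0.502 (adjusted p = 0.000479). Both fell with no overlap between the days. Among called segments the largest falls were in segments at or near 0 counts: Trav14n-2 went from 32 and 49 counts to 0 and 0, which is at least 20.1-fold lower with a floor of 3 counts over the group, and Trav8d-1 from 8 and 6 to 0 and 0, at least 3.48-fold lower (edgeR, adjusted p = 3.80e-06 and 0.00889). Trav9-2 went from 28 and 31 counts to 0 and 1, a log2 change of -5.20 ± 0.825 (adjusted p = 5.29e-05). Trav14n-2 shares its sequence with a copy, and the call of Trav8d-1 ended without WT day 2 replicate 2 (adjusted p = 0.0757).

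On day 5 part of the loss remained in WT spleens. Of the 88 segments 46 stood below day 0 past the threshold and 0 above, when 17% of all genes were called lower: 28 Trav, 18 Trbv and no Trgv or Trdv. DESeq2 called 31, of them 13 Trav and 18 Trbv. The median change was -1.63 log2 units against 0.01 over all genes. Trbv12-2 read 2.05 and 1.39 CPM, a log2 change from day 0 of -1.58 ± 0.295 (edgeR, adjusted p = 0.000372), and Trbv1 read 0.557 and 0.537 CPM, a log2 change of -2.07 ± 0.298 (2.79e-05). These 2 and Trbv15, Trbv13-1 and Trbv13-3 stayed past the threshold under every alternative tried. The count of 46 was 29 without WT day 0 replicate 1, 28 without WT day 5 replicate 1 and 21 without WT day 5 replicate 2.

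The called segments furthest below day 0 on day 5 in WT had few counts. Trav10d went from 6 and 18 counts to 0 and 0, at least 5.82-fold lower, Trav4d-4 from 10 and 8 to 1 and 0, and Trav7-6 from 14 and 23 to 3 and 0. The log2 changes of Trav4d-4 and Trav7-6 were -3.48 ± 1.18 and -3.06 ± 0.96, and the 3 adjusted p-values were 0.00404, 0.0259 and 0.0168 with edgeR. Trav4d-4 lost its call without WT day 0 replicate 1 (adjusted p = 0.112), WT day 5 replicate 1 (0.0509) or WT day 5 replicate 2 (0.187), and with DESeq2 (0.081). Trav7-6 lost its call without WT day 0 replicate 2 (0.0653) or WT day 5 replicate 2 (0.167). The more abundant Trav16n read 9 and 12 counts, below 43 and 43 on day 0.

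In KO spleens more segments passed on day 1 than in WT spleens, and the difference between the genotypes is tested below. Of the 88 segments 32 fell and 0 rose, when 19.5% of all genes were called lower: 13 Trav, 17 Trbv, 1 Trgv and 1 Trdv. The median change was -1.22 log2 units, and -1.33 over Trbv. Trbv13-1 went from 3.62 and 3.22 CPM to 1.34 and 1.3 CPM, a log2 change of -1.37 ± 0.278 (edgeR, adjusted p = 0.000701). Trbv19 had 142 and 154 counts on day 0 and 56 and 32 on day 1, a log2 change of -1.78 ± 0.362 (adjusted p = 0.000695). Both day 1 libraries stood well below both day 0 libraries for each, and these calls and those of Trbv13-3, Trbv1 and Trav16n held under every alternative tried. The count of 32 was 21 without KO day 0 replicate 2. Trbv12-2 changed by -0.99 ± 0.283 (adjusted p = 0.00879), a call that ended without KO day 0 replicate 2 (0.0782) or KO day 1 replicate 1 (0.0682). Among called segments the largest fitted falls were in Trav6-4 (12 and 13 counts, then 0 and 2), Trav14n-1 (28 and 40, then 5 and 5) and Trav14d-3-dv8 (21 and 14, then 2 and 3). Their log2 changes were -3.55 ± 1.09 (adjusted p = 0.0142), -2.80 ± 0.507 (0.000247) and -2.79 ± 0.695 (0.00362). The call of Trav6-4 ended without KO day 0 replicate 2 (0.0725) or KO day 1 replicate 1 (0.113).

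On day 2 in KO spleens 72 of the 88 segments fell and 0 rose, when 23% of all genes were called lower: 49 Trav, 20 Trbv, 2 Trgv and 1 Trdv. Without the library labelled KO day 2 replicate 1 48 of 99 segments then tested fell, and without replicate 2 it was 70 of 97. With all libraries DESeq2 called 61, of them 40 Trav and 19 Trbv. The median change by edgeR was -2.72 log2 units (-2.69 with segments at 0 counts set to their bound). For the same 88 segments it was -2.48 without the library labelled KO day 2 replicate 1 and -3.53 without replicate 2. Trbv12-2 went from 4.86 and 6.03 CPM to 0.598 and 1.46 CPM, a log2 change of -2.39 ± 0.317 (edgeR, adjusted p = 6.50e-06). Trbv14 had the largest beta change: 71 and 56 counts on day 0 and 3 and 2 on day 2, a log2 change of -4.33 ± 0.559 (adjusted p = 4.55e-06). In both segments every day 2 library lay below every day 0 library. Trbv13-1, Trbv13-3, Trbv15 and Trbv31 changed by -3.15 ± 0.336, -3.11 ± 0.358, -2.74 ± 0.391 and -3.50 ± 0.585, and the calls of all 4 and of Trbv12-2 held without the library that went against its label.

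The called segments with the largest KO day 2 falls had no counts on that day. Trav7-5 went from 33 and 21 counts to 0 and 0, at least 14.9-fold lower, and Trav8d-1 (16 and 16) and Trav9-4 (20 and 12) to 0 and 0, each at least 8.8-fold lower (edgeR, adjusted p = 9.95e-05, 0.000492 and 0.000876). Trav16n had 53 and 57 counts, then 4 and 8, a log2 change of -2.92 ± 0.449 (adjusted p = 3.33e-05).

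On day 5 in KO spleens 45 segments stood below day 0 and 0 above, when 20.3% of all genes were called lower: 25 Trav, 19 Trbv, 0 Trgv and 1 Trdv. DESeq2 called 32, of them 13 Trav and 18 Trbv. The edgeR count was 21 without KO day 5 replicate 1. Trbv13-3 read 14 and 20 counts against 112 and 117 on day 0, a log2 change of -2.44 ± 0.334 (edgeR, adjusted p = 1.19e-05). Trbv1 changed by -1.92 ± 0.308 (adjusted p = 6.35e-05) and Trbv12-2 by -1.26 ± 0.292 (0.00191). These 3 calls held under every alternative tried. Among called segments the largest falls were in Trav16d-dv11 (4 and 7 counts, then 0 and 0, at least 2.96-fold lower), Trav8-1 (16 and 11, then 0 and 1) and Trav8d-1 (16 and 16, then 0 and 2), with adjusted p = 0.0227, 0.0028 and 0.00373 by edgeR. Without KO day 5 replicate 1 none of these 3 passed (0.117, 0.053 and 0.0701), and Trav16d-dv11 also failed without KO day 0 replicate 2 (0.102) or KO day 5 replicate 2 (0.0824).

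**Figure D2:**
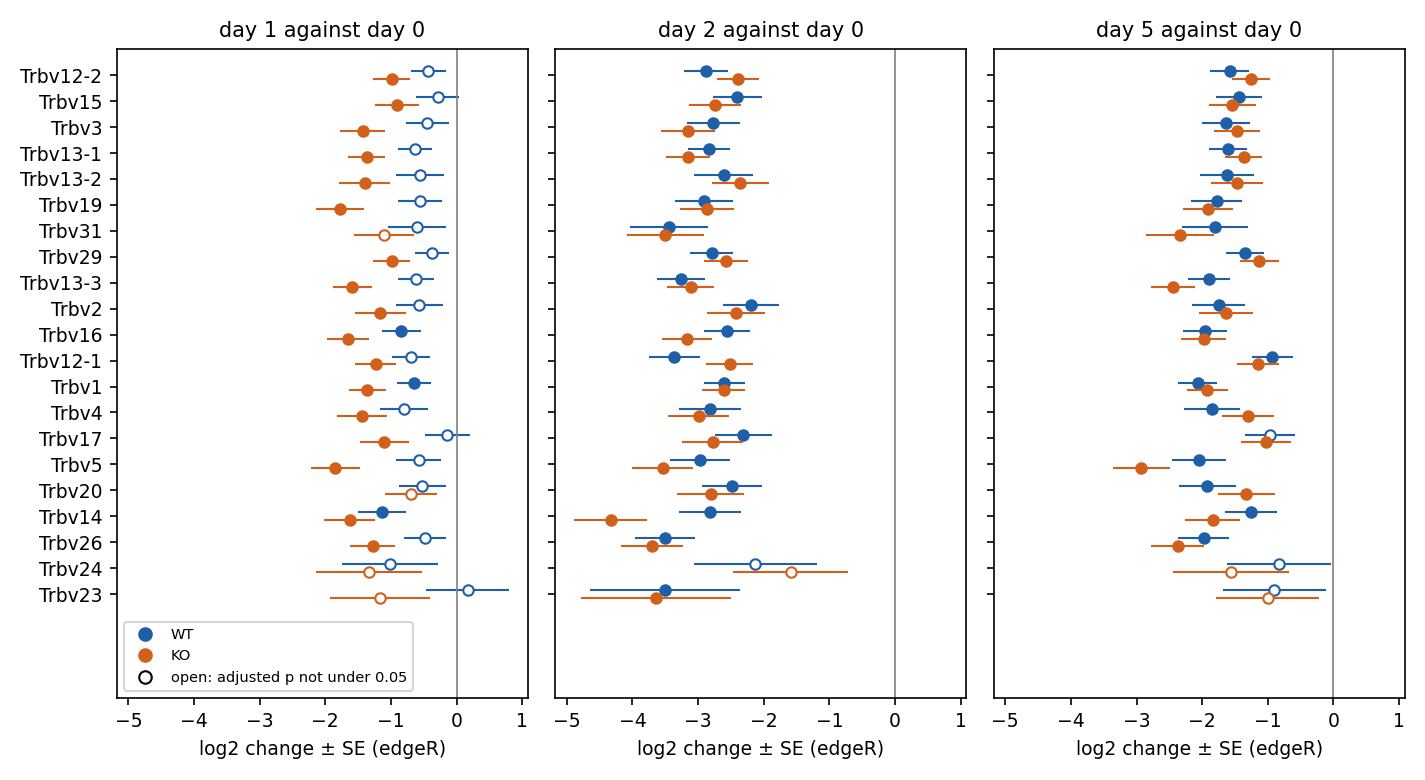
Log2 change from day 0 (x axis, edgeR estimate ± SE) of the 21 tested Trbv segments, ordered by total count, on days 1, 2 and 5 in WT (blue) and KO (orange); filled points passed an adjusted p of 0.05. On day 1 3 WT and 17 KO points are filled, and on day 2 all points but those of Trbv24 are filled in both genotypes.

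Part of the level returned between day 2 and day 5. In WT 15 of the 88 segments rose and 0 fell, when 15.8% of all genes were called higher, and in KO 15 rose and 0 fell, when 17.8% were. These shares, 17% in each genotype, lay near the background, and the rise is seen in the medians: 1.12 log2 units in WT and 1.15 in KO (1.07 and 1.13 with segments at 0 counts set to their bound), against -0.02 and -0.04 over all genes. The Trbv segments supplied 7 of the WT rises and 10 of the KO rises. The WT count was 4 without WT day 2 replicate 1, 9 without WT day 2 replicate 2 and 5 without WT day 5 replicate 1. The KO count was 5 without the library labelled KO day 2 replicate 1, 23 without KO day 2 replicate 2 and 6 without KO day 5 replicate 2.

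Trbv12-1 had the firmest rise in WT. It had 7 and 9 counts on day 2 and 44 and 41 on day 5, a log2 change of 2.43 ± 0.418 (edgeR, adjusted p = 0.000213) that held under every alternative tried. In KO the firmest was Trbv13-1, with 9 and 19 counts on day 2 and 48 and 46 on day 5, a log2 change of 1.78 ± 0.363 (adjusted p = 0.000818) that also held under all of them. Both day 5 libraries lay above both day 2 libraries for each. Among called segments the largest fitted rises in WT were in Trav14n-2 (0 and 0 counts, then 9 and 11, at least 6.83-fold higher), Trav6-3 (0 and 1, then 10 and 4) and Trav9-2 (0 and 1, then 7 and 7), with adjusted p = 0.000535, 0.0326 and 0.012. Trav9-2 no longer passed without WT day 2 replicate 1 (0.076), and Trav6-3 without WT day 2 replicate 1 (0.146), WT day 2 replicate 2 (0.0879) or WT day 5 replicate 1 (0.241), or with DESeq2 (0.0567). In KO they were in Trav7-5 (0 and 0, then 5 and 4, at least 3.07-fold higher), Trbv14 (3 and 2, then 8 and 20) and Trav14d-1 (1 and 5, then 16 and 10), with adjusted p = 0.0247, 0.00717 and 0.0215. Each of these KO calls ended without a single library of the compared groups: Trav7-5 without any of the 4 (0.083 and 0.0895 for day 2, 0.0718 and 0.0534 for day 5), Trbv14 without KO day 2 replicate 2 (0.0559) or KO day 5 replicate 2 (0.151), and Trav14d-1 without the library labelled KO day 2 replicate 1 (0.15) or KO day 5 replicate 1 (0.122), or with the compared groups alone (0.0554).

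Beta segment shares varied between libraries within each group. Shares of all Trbv counts in a library are used here, as a description with no test, since a segment's share falls when another's rises. The 5 leading segments over all libraries, Trbv12-2, Trbv15, Trbv3, Trbv13-1 and Trbv13-2, held 40.5 ± 0.496% of Trbv counts in WT day 0 (SD, n = 2), 43.1 ± 2.19% on day 1, 42.2 ± 2.02% on day 2 and 41.7 ± 5.1% on day 5. In KO they held 40.6 ± 1.84%, 44.2 ± 3.74%, 43.8 ± 4.49% and 46.5 ± 0.132%. The WT libraries overlapped between day 0 and days 2 and 5. Both WT day 1 libraries (41.5 and 44.6%) lay above both WT day 0 libraries (40.9 and 40.2%). In KO days 1 and 2 overlapped day 0, and both KO day 5 libraries (46.6 and 46.4%) lay above both KO day 0 libraries (39.3 and 41.9%). Over the 22 functional Trbv segments, Spearman's rho of a group's counts with those of its own genotype's day 0 was 0.963, 0.85 and 0.85 in WT and 0.929, 0.874 and 0.853 in KO on days 1, 2 and 5. Between the 2 libraries of a group it lay between 0.628 (KO day 2) and 0.948 (WT day 1). Segments are not independent replicates, and depth differs, with 138 to 2538 Trbv counts per library.

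Single shares could differ between the libraries of a group at high counts too, as for Trbv1 with 5.05 and 3.1% in KO day 0. Trbv12-2 held 11.7 and 11.4% of Trbv counts in WT day 0, 13.3 and 8.91% on day 2, then 13.5 and 10% on day 5. Its KO shares were 10.6 and 10.8% on day 0 and 15.2 and 14.7% on day 2. The WT days overlapped, whereas all KO libraries of days 1, 2 and 5 lay above both KO day 0 libraries. With the KO day 2 counts pooled, 76 of 513, the share was 14.8% with an exact 95% binomial interval of 11.9 to 18.2%, and on day 0 it was 10.7% (9.79 to 11.6%). These intervals cover counting error only. Trbv31 held 5.2 and 5.32% in WT day 0 but 0.51 and 4.89% on day 2, and 1.45 and 4.53% in KO day 2, so that the 2 libraries of day 2 lay further apart than the means of days 0 and 2. Trbv12-1 held 5.11 and 3.86% in WT day 0, 3.57 and 2.59% on day 2, then 7.31 and 7.21% on day 5. Both WT day 5 libraries lay above all WT libraries of the other days for Trbv12-1, and the KO day 5 shares were 4.79 and 6.56%.

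**Figure D3:**
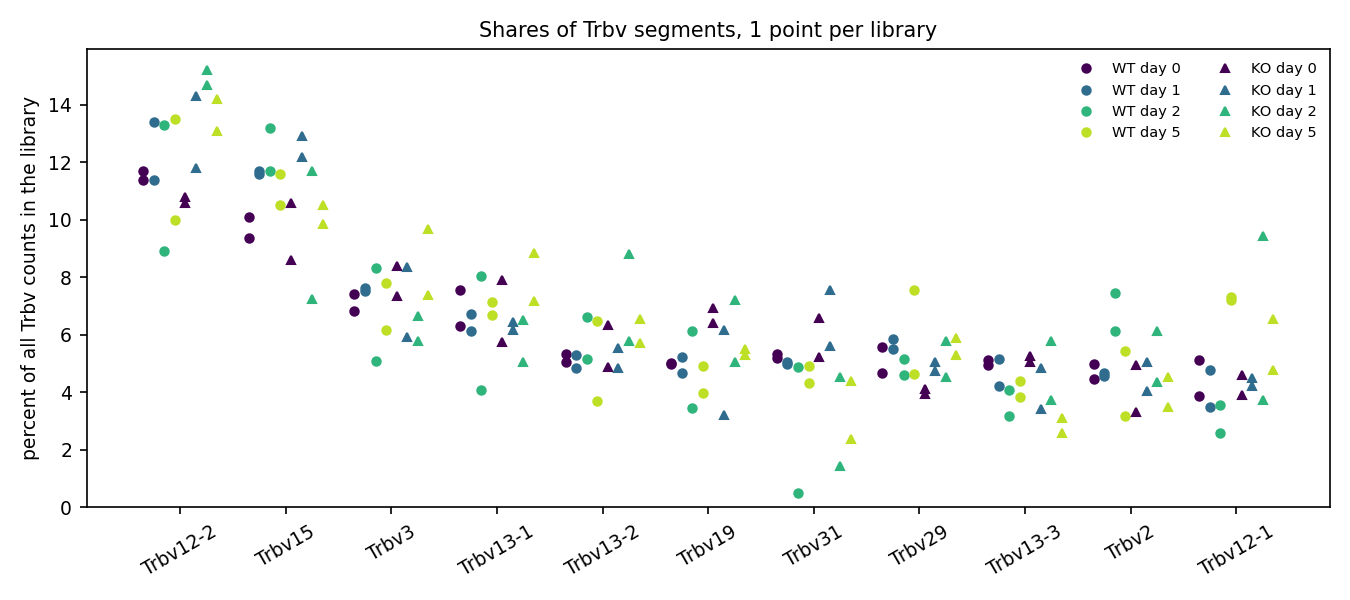
Percent of a library's Trbv counts (y axis) held by each of the leading Trbv segments (x axis), with 1 point per library, circles for WT and triangles for KO, coloured by day. Trbv12-2 lies between 8.91 and 15.2% in every library, and libraries of day 2 can lie apart, as for Trbv31 with 0.51 and 4.89% in WT.

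In the alpha locus the 9 Trav14 segments made up the largest family, with 19.8 ± 0.19% of Trav counts in WT day 0, 19.8 ± 1.37% on day 1, 13.8 ± 1.65% on day 2 and 20.4 ± 2.15% on day 5. In KO the family held 17.1 ± 0.186%, 16.5 ± 0.0948%, 13.1 ± 2.66% and 17.2 ± 4.15%. Trav6, with 15 segments, held 15.2 ± 1.25% in WT day 0 and 18.5 ± 3.28% on day 2. Segments with no cluster letter held 46.8 to 60.2% of Trav counts over the 16 libraries (49.8 to 57.1% as group means), those lettered n 15 to 37.7% (23.8 to 29.1%) and those lettered d 15.6 to 24.8% (19 to 22%).

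Between the genotypes no V segment passed on any day. In KO against WT 0 of 88 were called on days 0, 1, 2 and 5 with edgeR, and the same was found with DESeq2 and with limma on log2 FPKM. The counts with an unadjusted p under 0.05 were 2, 6, 3 and 5. Few genes of any kind differed: 0.0479% of all genes were called lower and 0.128% higher in KO on day 1, 0.00532% lower and 0.0106% higher on day 0, 0% either way on day 2, and 0.00532% lower and 0% higher on day 5. Averaged over days the count was also 0 (unadjusted p under 0.05 in 2, and 0 with DESeq2 or limma), when 0.016% of all genes were called lower and 0.0106% higher. The tests of whether the change from day 0 differed between genotypes also called 0 segments on days 1, 2 and 5 (unadjusted p under 0.05 in 6, 4 and 1, and 0 with DESeq2 or limma), when 0.0319% of all genes were called lower and 0.128% higher on day 1 and 0% on the others. The larger number of segments called in KO on day 1 is thus not shown to be a difference between the genotypes.

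The direction on day 1 was nonetheless uniform across the beta segments. All 21 Trbv estimates of KO against WT on day 1 lay below zero, with a median of -0.58 log2 units against -0.02 over all genes, and -0.75 by limma on log2 FPKM, where the median over all genes was -0.20. Summed Trbv levels were 28.9 and 32.4 CPM in WT and 21.8 and 20.2 CPM in KO, and the libraries did not overlap. Trbv1 had the smallest adjusted p of the Trbv segments: 1.49 and 1.44 CPM in WT and 0.933 and 0.651 in KO, a log2 difference of -0.89 ± 0.282 that did not pass (edgeR, adjusted p = 0.242). The segments share their libraries, so their common direction is not 21 separate observations. Summed CD3 levels moved the same way, 101 to 115 CPM in WT and 74.2 to 77.5 CPM in KO day 1, and per 100 CD3 counts Trbv stood at 28.4 ± 0.14 in WT and 27.7 ± 0.598 in KO (SD, n = 2). On day 0 3 of 21 Trbv estimates lay below zero, on day 2 11 and on day 5 8.

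Trav14d-3-dv8, an alpha segment that can also join a delta chain, was one of 2 segments near the threshold in KO against WT on day 1. It had 42 and 49 counts in WT day 0, 21 and 46 on day 1, 2 and 1 at day 2, then 12 and 4 on day 5. The KO counts were 21 and 14, 2 and 3, 2 and 0, and 3 and 3. Both KO libraries lay below both WT libraries on days 0, 1 and 5. The log2 difference on day 1 was -3.04 ± 0.658, with an adjusted p of 0.0665 by edgeR that missed the threshold, and over the alternatives this p lay between 0.00119 and 0.656. It passed with no filter on low counts, with the compared groups fitted alone (0.0358) and without WT day 0 replicate 1 (0.0405) or 2 (0.0379) or the library labelled KO day 2 replicate 1 (0.032) or 2 (0.0312). On day 0 the difference was -1.07 ± 0.464 (adjusted p = 0.802), and averaged over days it was -1.43 (0.693).

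Trav14n-1 had the smallest adjusted p of all V segments on that day. It had 32 and 50 counts in WT day 1 and 5 and 5 in KO day 1, a log2 difference of -2.38 ± 0.505 (edgeR, adjusted p = 0.0609). This p lay between 0.00248 and 0.496 over the alternatives, and passed in the same fits as that of Trav14d-3-dv8 (0.0332, 0.0308, 0.0391 and 0.0393 without the same 4 libraries). Trav14d-1, whose 364 coding bases are the same, had 15 and 32 counts in WT and 20 and 10 in KO. With the copies merged the difference was -1.03 ± 0.34 and the adjusted p 0.266. How the counting shared reads between these copies is not given in the sources used here.

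**Figure D4:**
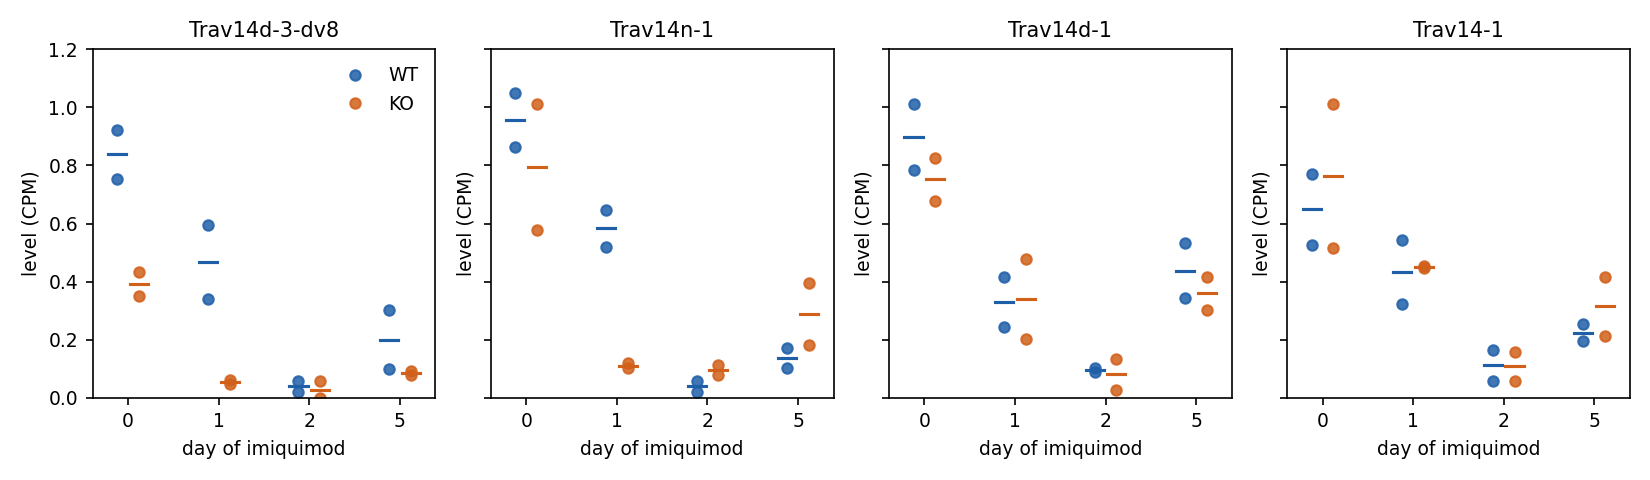
Level (CPM, y axis) of 4 Trav14 segments by day of imiquimod (x axis), with 1 point per library and a line at the mean of 2 libraries. On day 1 the KO points of Trav14d-3-dv8 and Trav14n-1 lie below the WT points, whereas those of Trav14d-1, identical in sequence to Trav14n-1, overlap them.

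The alpha segments of invariant natural killer T cells, counted together, fell on day 2 in both genotypes. Invariant natural killer T cells join Trav11 or its copy Trav11d to a fixed joining segment and pair it mostly with beta chains of Trbv13-2, Trbv29 or Trbv1. Trav11 and Trav11d together read 0.724 and 0.508 CPM in WT day 0, 0.292 and 0.285 on day 1, 0.088 and 0.124 at day 2, then 0.253 and 0.0488 on day 5. The KO libraries read 0.413 and 0.603, 0.527 and 0.142, 0.057 and 0.106, and 0.0521 and 0.274 CPM. Day 2 lay below day 0 in every library of both genotypes, and KO days 1 and 0 overlapped. With the copies merged the log2 change on day 2 was -2.50 ± 0.7 in WT (edgeR, adjusted p = 0.00688) and -2.64 ± 0.783 in KO (0.00894), and on day 5 it was -2.03 ± 0.664 in WT (0.0207) and -1.72 ± 0.701 in KO (0.0541). Single libraries were not left out of that merged fit. Its day 2 changes lay near the Trav medians of -2.76 in WT and -2.69 in KO. V segment counts do not show the joining segment, so the share of these counts from invariant natural killer T cells was not tested. Fitted alone, Trav11 passed in WT day 2 (-3.21 ± 0.928, adjusted p = 0.00882), a call that ended without WT day 2 replicate 1 (0.0578) or 2 (0.0646), and Trav11d did not (-1.74 ± 0.788, 0.0806). In KO day 2 Trav11 alone passed (-2.53 ± 0.999, 0.0432), but 11 alternatives ended that call, among them DESeq2 (0.0703) and leaving out the library labelled KO day 2 replicate 1 (0.213), KO day 0 replicate 1 (0.0865) or KO day 0 replicate 2 (0.134). A further 5 of the 11 left out WT libraries of days 0, 1 and 2, with adjusted p between 0.053 and 0.0543.

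Their usual beta partners are used by many conventional T cells as well. Trbv13-2 went from 2.68 and 1.97 CPM in WT day 0 to 0.382 and 0.373 on day 2, a log2 change of -2.61 ± 0.453 (edgeR, adjusted p = 0.000166). Trbv29 went from 107 and 141 counts to 9 and 18, a log2 change of -2.79 ± 0.329 (1.93e-06), and Trbv1 from 2.65 and 1.97 CPM to 0.411 and 0.352 CPM, a log2 change of -2.60 ± 0.314 (2.54e-06). In KO the same segments changed by -2.36 ± 0.433, -2.57 ± 0.337 and -2.61 ± 0.331. All these values lay near the Trbv medians of -2.82 in WT and -2.86 in KO. Trav1, the alpha segment of mucosal-associated invariant T cells, was too low to test, with 10 and 2 counts in WT day 0, 8 and 1 in KO day 0 and at most 6 in any later library.

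The gamma and delta segments had few counts, and their day 2 falls were less certain. Trgv1, Trgv2 and Trgv4 all passed in WT day 2. Trgv1 had 17 and 16 counts on day 0 and 2 and 2 on day 2, a log2 change of -2.58 ± 0.726 (edgeR, adjusted p = 0.00742). Trgv2 had 26 and 26, then 8 and 5, a change of -1.56 ± 0.585 (0.0371), and Trgv4 had 30 and 13, then 3 and 4, a change of -2.24 ± 0.758 (0.0224). No day 2 library of these segments reached a day 0 library. In KO day 2 Trgv2 changed by -1.35 ± 0.534 (0.0435) and Trgv4 by -2.03 ± 0.648 (0.0146), and Trgv1 did not pass at -1.55 ± 0.645 (0.0543).

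Each of these gamma calls depended on single libraries. In WT, Trgv1 no longer passed without WT day 2 replicate 2 (0.0832), Trgv2 without WT day 0 replicate 1 (0.143) or WT day 2 replicate 2 (0.298), and Trgv4 without WT day 0 replicate 1 (0.276) or either WT day 2 library (0.0808 and 0.125). In KO, Trgv4 failed without KO day 0 replicate 2 (0.0706) or the library labelled KO day 2 replicate 1 (0.115). Trgv2 failed without KO day 0 replicate 2 (0.297), the library labelled KO day 2 replicate 1 (0.147) or 2 (0.0752), or WT day 5 replicate 1 (0.0553). Trgv2 also failed with DESeq2 (0.0617 in WT, 0.0738 in KO) and with summed transcripts (0.062 and 0.071). In KO Trgv1 passed with limma (0.0247), and by edgeR with the protein-coding transcript first (0.045) or near-identical copies merged (0.0452). Its log2 change there was -1.54 without WT day 5 replicate 1 and -1.61 without WT day 5 replicate 2. The other gamma segments were too low to test: Trgv6 had 31 counts over the 16 libraries, Trgv7 28, and Trgv3 and Trgv5 11 each.

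Trdv2-2 fell on day 2, and Trdv4 did not pass on any day. Trdv2-2 had 37 and 26 counts in WT day 0, 8 and 19 on day 1, 3 and 5 at day 2, then 18 and 15 on day 5. Its KO counts were 38 and 19, 11 and 10, 3 and 4, and 3 and 10. Day 2 lay below day 0 in both genotypes, with log2 changes of -2.58 ± 0.617 in WT and -2.69 ± 0.636 in KO (edgeR, adjusted p = 0.00229 and 0.00181), calls that held under every alternative tried. On day 5 it stood below day 0 in KO (-1.77 ± 0.57, adjusted p = 0.0172), a call that ended without KO day 0 replicate 1 (0.15) or KO day 5 replicate 1 (0.228). From day 2 to day 5 it rose in WT (2.05 ± 0.657, adjusted p = 0.0242), a call that ended without WT day 2 replicate 1 (0.101), WT day 2 replicate 2 (0.111) or WT day 5 replicate 1 (0.112).

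The libraries of Trdv4 overlapped between day 0 and day 2 in WT. Its counts were 6 and 14 in WT day 0, 19 and 10 on day 1, 2 and 13 at day 2, then 8 and 11 on day 5, and in KO 9 and 14, 7 and 20, 8 and 6, and 11 and 5. The log2 change on day 2 was -0.01 ± 0.713 in WT (edgeR, adjusted p = 0.99) and -0.45 ± 0.693 in KO (0.62). With single libraries left out the WT estimate lay between -1.55 and 0.59, and whether Trdv4 differed from Trdv2-2 was not tested. Trdv5 had 34 counts in KO day 0 replicate 1 and 3 in replicate 2, and 7 and 11 in WT day 0. Trdv1 had 10 and 8 counts in WT day 0 and 0 and 1 on day 2, 9 and 12 in KO day 0 and 1 and 2 on day 2. Trdv2-1 and the pseudogene Trdv3 had at most 2 counts in any library.

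The constant segments and the CD3 complex, the signalling chains that carry every T cell receptor, fell with the V segments. Of the 7 tested constant segments 7 fell on day 2 in WT and 7 in KO, with medians of -2.12 and -2.32 log2 units. Of the 4 CD3 genes 4 fell in each, with medians of -2.45 and -2.53. On that day 21.3% of all genes were called lower in WT and 23% in KO. The V segment medians were -2.74 and -2.72, and whether they differ from these lists was not tested. The lists were chosen with earlier results of these data known. Trbc2 read 109 and 86.5 CPM in WT day 0, 18.4 and 20.6 on day 2, then 38.5 and 38.3 on day 5, and Cd3e read 30 and 30.3, then 5.4 and 5.18, then 13 and 11.3. Per 100 CD3 counts, Trbv stood at 28.7 ± 1.52, 28.4 ± 0.14, 20.7 ± 1.92 and 24 ± 0.916 in WT on days 0, 1, 2 and 5 (SD, n = 2) and at 32.3 ± 3.6, 27.7 ± 0.598, 24.1 ± 1.5 and 26.4 ± 1.21 in KO. Both day 2 libraries lay below both day 0 libraries in each genotype. The delta and gamma segments went the other way per CD3 count: together they stood at 1.56 ± 0.322, 1.51 ± 0.263, 2.29 ± 0.168 and 2.67 ± 0.121 in WT and 2.25 ± 0.0701, 2.1 ± 0.524, 3.92 ± 0.814 and 2.66 ± 0.092 in KO. The KO day 2 values were 4.5 in the library labelled replicate 1 and 3.35 in replicate 2, both above the KO day 0 values of 2.3 and 2.2. These ratios were not tested.

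**Figure D5:**
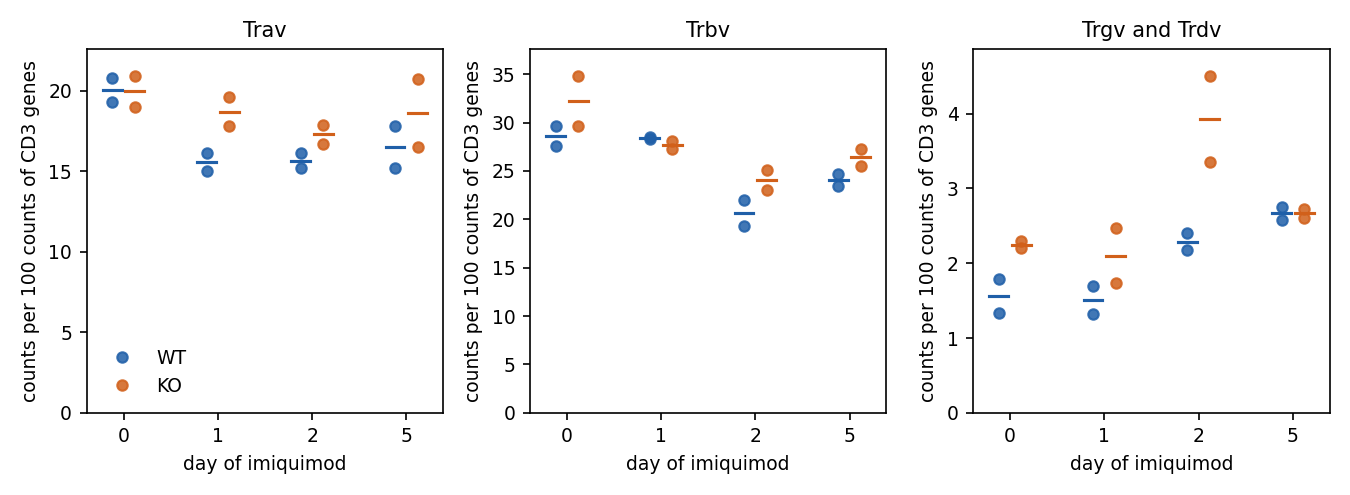
Counts of Trav, Trbv and the Trgv and Trdv segments together per 100 counts of the 4 CD3 genes (y axis) by day of imiquimod (x axis), with 1 point per library and a line at the mean of 2 libraries. Trbv is lower on day 2 than on day 0 (20.7 against 28.7 in WT), whereas the gamma and delta segments are higher (2.29 against 1.56 in WT).

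Relative to its own constant segment, the V signal of the alpha chain was lower on every later day. Trav counts were 55.4 and 65% of Trac counts in WT day 0, 38.5 and 40.9% on day 1, 39.8 and 43.1% at day 2, then 48.4 and 40.9% on day 5. The KO values were 57.3 and 56.6%, 42 and 47.9%, 41 and 46.8%, and 49.1 and 39.9%. In both genotypes all libraries of later days lay below both day 0 libraries. Trbv counts were 30.4 ± 0.795% of the Trbc1 and Trbc2 counts in WT day 0 and 27.5 ± 0.861%, 22.3 ± 2.23% and 26.2 ± 1.75% on days 1, 2 and 5. In KO they were 32.8 ± 2.48%, 26.6 ± 1.03%, 26.8 ± 5.29% and 28.1 ± 1.8%. The gamma constant segment Trgc1 read 2.19 and 1.23 CPM in WT day 0, 0.264 and 0.559 on day 2, then 1.88 and 3.27 on day 5, and in KO 2.11 and 2.06, 0.342 and 0.743, and 2.4 and 2.04 CPM. It did not pass on day 5 against day 0 (edgeR, log2 change 0.61 ± 0.334, adjusted p = 0.162 in WT, and 0.09 ± 0.339, 0.851 in KO). Trgv counts were 23.8 ± 2.79, 21.6 ± 1.55, 20.2 ± 6.14 and 15.5 ± 1.44% of the gamma constant counts in WT on days 0, 1, 2 and 5, and 30.9 ± 3.05, 22.7 ± 5.49, 34.9 ± 5.4 and 24.8 ± 5.38% in KO. Trdv counts were 21.5 ± 4.98, 23.8 ± 0.861, 28.5 ± 11.2 and 29.7 ± 5.55% of Trdc counts in WT, and 27.2 ± 7.79, 30.1 ± 0.469, 66.2 ± 14.6 and 22.7 ± 4.08% in KO, where KO day 2 rests on 51 Trdc counts.

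Most other T cell lists fell on day 2, when 21.3% of all genes were called lower and 23.9% higher in WT and 23% and 26.2% in KO. All 9 coreceptor and surface genes fell in WT and in KO, with medians of -2.20 and -1.97 log2 units, as did all 8 genes of proximal receptor signalling, with medians of -1.65 and -1.78. Of the 9 genes of naive T cells 9 fell in WT and 8 in KO. The 8 activation genes were mixed: 5 fell and 2 rose in WT, and 3 fell and 3 rose in KO, with Icos at -2.01 ± 0.236 and the inhibitory receptor Ctla4 at 1.56 ± 0.235 in WT (edgeR, adjusted p = 1.76e-06 and 6.47e-05). The WT counts were 3 and 1 without WT day 0 replicate 1, and the KO falls 5 without KO day 1 replicate 2. Of the 8 innate-like T cell genes 4 fell in WT (2 without WT day 0 replicate 2) and 6 in KO (3 without the library labelled KO day 2 replicate 1), with medians of -0.68 and -0.96, and none rose. Genes of other cell types moved on the same day. All 7 plasma cell markers rose in both genotypes, with summed levels of 188 to 232 CPM in WT day 0 and 1610 to 2160 on day 2, and 181 to 226 and then 1390 to 2510 CPM in KO. None of these markers was at 0 in any library. Of the 6 B cell markers 1 fell in WT, a share near that of all genes, and 4 in KO, with summed levels of 1620 to 1850 CPM in WT day 0 and 1380 to 1520 on day 2, and 1720 to 1730 and then 1230 to 1320 CPM in KO. The B cell counts were 3 without WT day 0 replicate 2 and 2 without KO day 0 replicate 1. All 5 natural killer cell markers fell in both genotypes, from 42.6 to 53.8 CPM in WT day 0 to 17.6 to 18.7 on day 2 and from 62 to 62.6 to 17.8 to 19.7 CPM in KO. Of the 6 myeloid markers 5 fell in WT and 2 in KO on day 2 (2 in WT without WT day 0 replicate 2, and 4 in KO without KO day 2 replicate 2), with summed levels of 914 to 1220 and then 389 to 475 CPM in WT and 1050 to 1110 and then 367 to 638 CPM in KO. On day 5, when 22.4% of all genes were called higher in WT and 24.2% in KO, the 9 erythroid markers had risen in both genotypes, from 496 to 1180 CPM in WT day 0 to 7320 to 10700, and from 1000 to 1570 to 15400 to 21200 CPM in KO, counts that were 2 without WT day 0 replicate 1 and 2 without KO day 0 replicate 1. The part of these other cells in the V segment levels was not tested.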

How the data were processed

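Total RNA of pooled mouse spleen suspensions was sequenced as stranded, ribosome-depleted libraries, per the labels' protocols. Reads were handled with bcl2fastq 2.17.1.14, Trimmomatic, HISAT2 and TopHat on mm10, per the submitters' processing notes. For the counting program, its annotation and its treatment of multi-mapping reads, the sources used here name nothing. The authors' deposited tables give, per transcript, raw fragment counts, FPKM values, a score scaled to the library (fragments per 1000000) and the transcript size, per the file headers. Counts were used for all tests, FPKM to compare levels between segments, and that score as an alternative scaling.

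For every symbol the transcript with the highest mean count was kept. Genes passing edgeR's filter on low counts (18789) were fitted together over the 8 groups with edgeR 4.0.16 (robust quasi-likelihood, trimmed-mean scaling of the authors' total fragments, 8 residual degrees of freedom) in R 4.3.3, and p-values were adjusted over all of them in each of 16 comparisons. Comparisons with day 0 within a genotype share their day 0 libraries. The script was tested on simulated data. Summed levels and shares are descriptions with no test. Named segments were all Trgv and Trdv, and the 10 Trbv and 10 Trav with the highest mean counts. Also named were the 3 largest calls in each direction per comparison and segments of innate-like T cells. Of these, those a result turns on are printed. Trbv12-1, Trbv14, Trbv16, Trbv23 and Trbv24 among the others named were singled out after their values were seen where this rule does not cover them. The members, the gene lists and this rule were chosen with earlier results of these data known. Sequences came from the GENCODE M21 transcripts and genome. Alternatives were DESeq2 1.42.0, limma 3.58.1 on log2(FPKM + 0.1), other scalings and filters, other transcript choices, merged copies, the compared groups alone, a replicate block and each library left out. Replicates were numbered by the labels, and the numbers did not pair the samples: over 28 pairs the correlation of same-numbered deviations was between -0.161 and 0.205.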

Additional observations from a re-analysis of the deposited data

How the results depend on the processing

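The main limits are 2 pooled libraries per group, few counts per segment on day 2, and copies of Trav segments that reads cannot separate. The number of V segments called against day 0 lay, with single libraries left out, between 3 and 15 in WT day 1 (10 with all), 55 and 85 in WT day 2 (75), 21 and 52 in WT day 5 (46), 21 and 40 in KO day 1 (32), 48 and 81 in KO day 2 (72) and 21 and 51 in KO day 5 (45). From day 2 to day 5 it lay between 4 and 21 in WT and 5 and 23 in KO (15 in each), and for KO against WT on day 1 between 0 and 2. In WT day 1 DESeq2 and limma called 5 each. The fits with a library left out did not test the same 88 segments. For example, 95 were tested without WT day 0 replicate 1 and 99 without WT day 5 replicate 1. From day 2 to day 5 limma called 24 of 88 in each genotype. The compared groups alone gave 5 in KO, where only 23 segments were then tested. KO against WT on day 1 gave 2 calls of 162 segments with no filter and 2 of 55 with the compared groups alone. A replicate block gave 10, 74 and 45 calls in WT and 31, 70 and 45 in KO against day 0, and 16 and 13 from day 2 to day 5. Without trimmed-mean scaling the summed Trav change in WT day 1 was -0.63 log2 units. The summed Trbv levels of WT day 0 (51.6 and 37.7) and WT day 1 (34.6 and 38.5) then overlapped. Relative to CD3 counts the summed changes on days 1, 2 and 5 were -0.37, -0.36 and -0.28 (WT) and -0.10, -0.21 and -0.10 (KO) for Trav, -0.01, -0.47 and -0.25 (WT) and -0.22, -0.42 and -0.29 (KO) for Trbv, and for the gamma and delta segments -0.05, 0.55 and 0.77 (WT) and -0.10, 0.80 and 0.24 (KO), the last 2 values of each genotype reversing direction. The 5 leading Trbv families held 55.1, 56.8, 53.7 and 57.6% in WT and 56.8, 57.4, 61.2 and 60.4% in KO on days 0, 1, 2 and 5, and by FPKM the 5 leading segments held 41.6% in WT day 0 and 47.6% in KO day 5. The day 2 change of Trdv4 turned positive without WT day 0 replicate 2 (0.41), WT day 2 replicate 1 (0.59) or KO day 0 replicate 2 (0.07), and its lowest values with a library left out were -1.55 in WT and -0.85 in KO. The causes of these differences were not tested, except that fewer libraries or genes enter where they are left out.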

Other observations

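Genes of receptor assembly were also present in these spleens, and which cells their RNA came from was not tested. Rag1, a subunit of the recombinase that cuts V segments, read 2.06 and 2.94 CPM in WT day 0 and 0.235 and 0.29 CPM on day 2, a log2 change of -3.23 ± 0.445 (edgeR, adjusted p = 1.19e-05), and in KO the change was -3.24 ± 0.51. Dntt, the polymerase that adds untemplated bases at V joints, read 1.47 and 1.41 CPM in KO day 0, 0.057 and 0.0531 CPM on day 2 and 1.64 and 1.89 CPM by day 5. Its log2 change in KO was -4.64 ± 0.438 on day 2 and 4.94 ± 0.433 from day 2 to day 5, and in WT -3.31 ± 0.382 and 3.68 ± 0.379. On day 5 Dntt thus stood near day 0 (0.38 ± 0.264 in WT, adjusted p = 0.277, and 0.29 ± 0.262 in KO, 0.389), whereas Rag1 stayed below it in both genotypes (-2.80 ± 0.426 and -1.74 ± 0.432), in KO only with KO day 0 replicate 2 included. Rag2 and Ptcra were too low to test. The V segment pseudogenes gave a low level beside the functional segments: Trbv pseudogenes summed to 0.307 and 0.2 CPM in WT day 0 and 0.0587 and 0.0828 CPM on day 2, where all Trbv segments summed to 50.2, 39.1, 5.75 and 7.21 CPM.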
